A study of Homo sapiens with 14 samples.

Results

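The zinc finger genes of human chromosome 19 were examined for C-to-U edits in HEK293T, a line from human embryonic kidney, after fixation with methanol. Members were the protein-coding Gencode genes on this chromosome (hg38) whose symbol is ZNF followed by a number and an optional letter. The rule gave 246 genes of 20046 protein-coding genes, beside 1230 other protein-coding genes of chromosome 19 and 262 ZNF genes on other chromosomes. In the assay, an antibody against RBFOX2, a splicing regulator that binds UGCAUG, was placed on the fixed cells, and an APOBEC1 deaminase fused to a nanobody was attached to it. Cytosines near the antibody were thereby converted to uracils. All 14 libraries came from the unmodified line and from 1 ng or 100 pg of total RNA. Per input there were 3 RBFOX2 libraries with antibody and enzyme, 3 Buffer-only libraries that lacked both, and 1 Enzyme-only library that had the enzyme without antibody. Replicates were separate slides that the study calls technical, so p-values measured only the spread between such slides. The single Enzyme-only libraries entered no comparison between groups and have no replicate check.

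Most genes of this family encode strings of C2H2 zinc fingers that read DNA, and many carry a KRAB domain at the amino end. The KRAB domain recruits TRIM28, which brings the histone methyltransferase SETDB1 and heterochromatin proteins to the bound DNA, often at transposable elements. On chromosome 19 these genes lie in tandem arrays that grew by duplication. Neighbouring genes are therefore alike in sequence, and reads from near-identical copies may be placed in either one.

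A library held 18650 to 42589 edit sites in all. An edit site is a position with at least 1 read showing the change on the strand of the gene, scored above 0.5 by SAILOR and edited in a fraction of its reads below 0.8. Sites of a list of 6 genes typical of HEK293 cells were present for 6 of 6 genes, those of kidney segment genes for 0 of 6, and those of blood, fibroblast, liver and vessel genes for 1 of 5, with 2 sites in all. In these bulk libraries a lower level of a transcript and a lower share of edited molecules cannot be told apart, because a site needs reads to be called. Sums of sites and clusters in the members were not scaled to the sequencing depth of a library, which was not examined here. In the study the number of edit clusters rose with depth. Differences in these sums between groups or inputs may thus hold differences in depth.

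The zinc finger genes held few edits each. Over the 14 libraries they carried 825 sites at 812 positions. Of the 246 genes, 146 had a site in some library and 100 had none. A single site was found in 38 genes, 2 to 4 sites in 55, and 5 or more in 53, among them 22 genes with 10 or more. No gene had a site in every library, and the widest spread was 13 libraries. With each site given to 1 gene, a member with any site held a median of 3 sites, against 8 for ZNF genes of other chromosomes, 8 for the other protein-coding genes of chromosome 19 and 13 for protein-coding genes elsewhere. The share of genes with any site was 59.3% for the members, 54.1% for their chromosome 19 neighbours, 78.6% for ZNF genes elsewhere and 61.9% for the remaining protein-coding genes.

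Sites in the zinc finger genes were also thinly covered. The median coverage of a member site was 10 to 21 reads per library and was below that of other protein-coding genes, 20 to 28 reads, in 14 of 14 libraries. The median edit fraction was 7.69% to 14.3% in the members and 6.06% to 7.69% elsewhere, higher in 14 of 14 libraries. Both values are tied to the coverage, since 1 edited read among 10 already gives a larger fraction than 1 among 20. Sites with a single edited read made up 46.2% to 84.8% of the member sites.

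The first comparison set libraries with antibody and enzyme against libraries with neither, so it does not separate the antibody from the enzyme. At 1 ng the RBFOX2 libraries held 109, 96 and 86 sites in the members, the Enzyme-only library 94, and the Buffer-only libraries 30, 47 and 52. The RBFOX2 and Buffer-only ranges did not touch, and the Enzyme-only library lay inside the RBFOX2 range. The means were 97 ± 11.5 and 43 ± 11.5 (SD, n = 3 each; exact two-sided permutation test, p = 0.1). This is the smallest p that 3 libraries against 3 allow. The difference of 54 sites was 28.3 among sites with at least 10 reads and 11.7 among sites with at least 20, with the groups still apart (exact permutation p = 0.1 each). The number of members with a site averaged 47.7 ± 5.03 in RBFOX2 and 32 ± 6.25 in Buffer-only libraries (exact permutation p = 0.1), with 48 in the Enzyme-only library, and with at least 20 reads this difference was 3.67 members (exact permutation p = 0.3).

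At 100 pg the groups overlapped in the number of sites. The RBFOX2 libraries held 49, 52 and 46 sites, the Enzyme-only library 52, and the Buffer-only libraries 25, 54 and 33. The means were 49 ± 3 and 37.3 ± 14.98 (SD, n = 3; exact permutation p = 0.4), and Buffer-only replicate 2 lay above all 3 RBFOX2 libraries. Without that library the difference in means was 20 sites in place of 11.7. The groups were apart when edited reads were counted in place of sites, with at least 117 reads in each RBFOX2 library against 36, 89 and 43 in Buffer-only (exact permutation p = 0.1) and 226 in Enzyme-only. They were also apart among sites with at least 20 reads, where the difference was 10.3 sites (p = 0.1, exact permutation). From 1 ng to 100 pg the RBFOX2 mean went from 97 to 49 sites, with no overlap between inputs (exact permutation p = 0.1), while the Buffer-only mean went from 43 to 37.3 (p = 0.8). The difference of 48 sites between inputs in RBFOX2 libraries was 16.3 with at least 10 reads and 1.67 with at least 20 reads, where it was within the spread (exact permutation p = 0.6). A direct test of whether the difference between RBFOX2 and Buffer-only libraries changed with the input gave p = 0.115 (exact permutation within each input).

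Clusters, which FLARE builds from neighbouring sites, followed the sites. At 1 ng there were 91, 80 and 69 clusters in the RBFOX2 libraries, 78 in Enzyme-only and 28, 38 and 48 in Buffer-only (exact permutation p = 0.1). At 100 pg there were 34, 43 and 40 against 24, 51 and 28 (exact permutation p = 0.7), with 41 in Enzyme-only. None of the clusters in the lists that the authors made over the replicates touched a zinc finger gene. Before removal of Buffer-only clusters, the RBFOX2 list at 1 ng held 907 clusters, of which 10 lay on chromosome 19 and 0 in a member. At 100 pg these numbers were 267, 3 and 0. After the removal they were 776, 8 and 0 at 1 ng and 214, 3 and 0 at 100 pg. Members held a mean of 0.335% of the protein-coding sites in RBFOX2 libraries at 1 ng and 0.319% at 100 pg. At such a share lists of this length would hold few clusters of members or none.

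**Figure D1:**
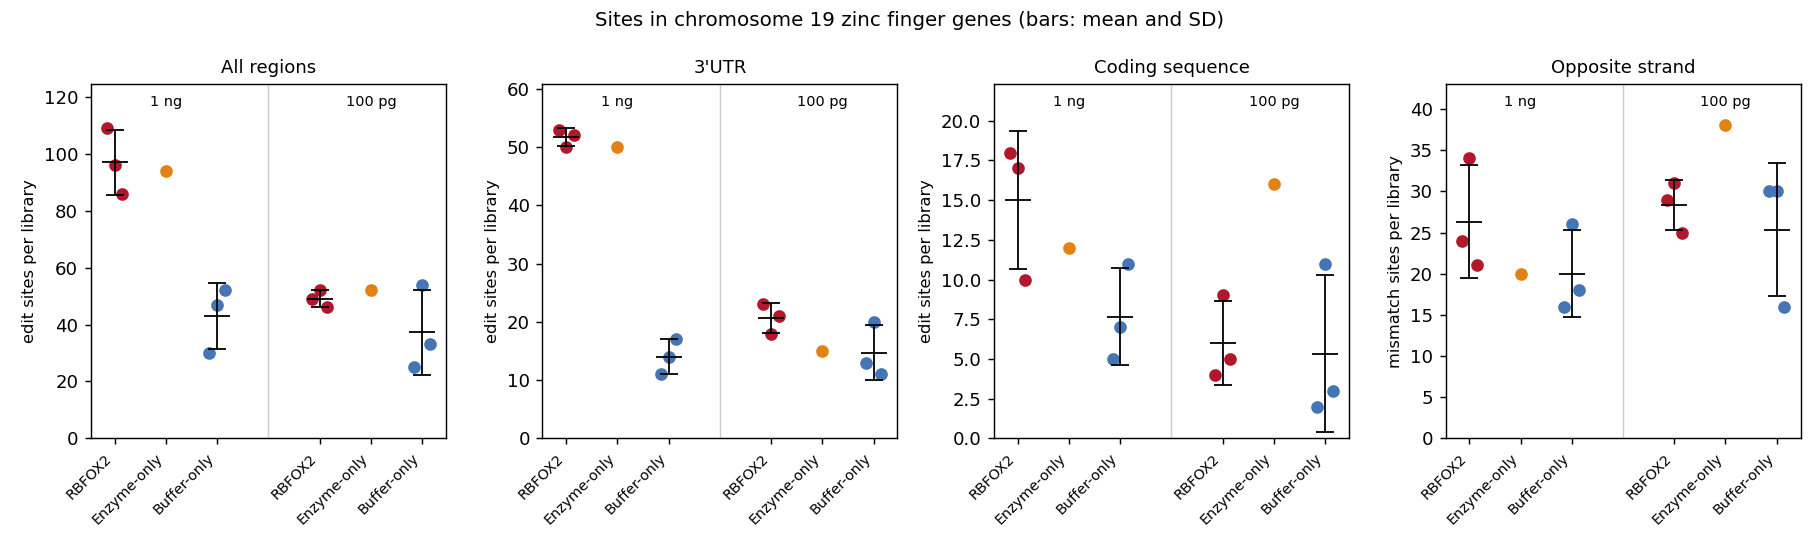
Edit sites per library in the zinc finger genes of chromosome 19, by condition and input, for all regions, the 3′UTR and the coding sequence, with mismatch sites on the opposite strand of the same genes in the last panel. Points are libraries and bars give mean and SD. At 1 ng the 3′UTR panel separates 50 to 53 sites in RBFOX2 from 11 to 17 in Buffer-only, with Enzyme-only at 50, while the opposite strand panel shows overlapping groups.

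Of the difference of 54 sites between the group means at 1 ng, 37.7 lay in the 3′UTR. RBFOX2 libraries held 51.7 ± 1.53 sites in the 3′UTR of members and Buffer-only libraries 14 ± 3 (SD, n = 3; exact permutation p = 0.1), a 3.69-fold difference in means, with 50 sites in Enzyme-only. Per 100 kb of annotated 3′UTR this was 6.54 against 1.77 sites. Among sites with at least 20 reads the difference was 10.3 sites in place of 37.7, with the groups still apart (exact permutation p = 0.1). In the coding sequence the counts were 15 ± 4.36 against 7.67 ± 3.06 (p = 0.2), and in introns 22 ± 4.36 against 16.7 ± 6.66 (p = 0.6, exact permutation), so the groups overlapped in both regions. At 100 pg the 3′UTR held 20.7 ± 2.52 against 14.7 ± 4.73 sites (exact permutation p = 0.2) and the coding sequence 6 ± 2.65 against 5.33 ± 4.93 (p = 0.9). The Enzyme-only library at 100 pg held 16 coding sites, above every RBFOX2 and Buffer-only library of that input. Mismatches on the opposite strand of the same genes, which the assay does not target, numbered 26.3 ± 6.81 against 20 ± 5.29 at 1 ng (exact permutation p = 0.3) and 28.3 ± 3.06 against 25.3 ± 8.08 at 100 pg (p = 0.8). The library kit is not stated to keep the strand, so reads of overlapping genes on both strands cannot be told apart.

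The coding edits were spread over the protein. Over all libraries, 129 coding sites, counted once for each member they lie in, fell in the canonical transcript. Read as C-to-U changes of that transcript, 61 were synonymous, 65 changed an amino acid and 3 made a stop codon. Of these sites, 38.8% lay in a stretch of finger repeats, which made up a mean of 41.5% of the proteins concerned. Buffer-only libraries, which had no enzyme, gave 23 of the sites at 1 ng and 16 at 100 pg. The pooled numbers thus do not describe enzyme edits alone. The share in finger repeats was 35.6% in RBFOX2 and 30.4% in Buffer-only libraries at 1 ng, and 50% and 43.8% at 100 pg. The coding share of exonic sites was 23.1% on average in members and 24.0% in other protein-coding genes over the 7 libraries at 1 ng (exact sign-flip permutation p = 0.641, higher in members in 3 of 7 libraries). This test took the 3 conditions together.

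The members were next set against other genes. Their share of all protein-coding sites at 1 ng was 0.335% ± 0.0496 in RBFOX2 and 0.411% ± 0.0910 in Buffer-only libraries (SD, n = 3; exact permutation p = 0.3), and at 100 pg 0.319% against 0.411% (p = 0.5). With each site given to 1 gene, the mean number of sites at 1 ng was 2.28 times higher in RBFOX2 than in Buffer-only libraries for the members, 1.71 times for the other protein-coding genes of chromosome 19, 2.67 times for ZNF genes elsewhere and 2.85 times for protein-coding genes of other chromosomes. Within chromosome 19 the members held 12.7%, 11.5% and 11.2% of the protein-coding sites in RBFOX2 libraries, 11.8% in Enzyme-only and 6.88%, 10.3% and 10.3% in Buffer-only libraries. All 3 RBFOX2 values lay above the Buffer-only values (exact permutation p = 0.1), and at 100 pg the shares were 9.06% ± 0.702 and 8.72% ± 3.42 (p = 0.8). The 1 ng difference of 2.63 percentage points was 1.33 with at least 10 reads (exact permutation p = 0.5) and 0.713 with at least 20 (p = 0.7), where the groups overlapped, and was 1.49 points without Buffer-only replicate 1. Of the sites in ZNF genes of all chromosomes the members held 19.99% ± 3.34 against 22.3% ± 3.32 at 1 ng (exact permutation p = 0.5). Over the 30 values compared for these genes, 9 reached p = 0.1 and the lowest adjusted p was 0.333 (Benjamini-Hochberg over the exact permutation tests).

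**Figure D2:**
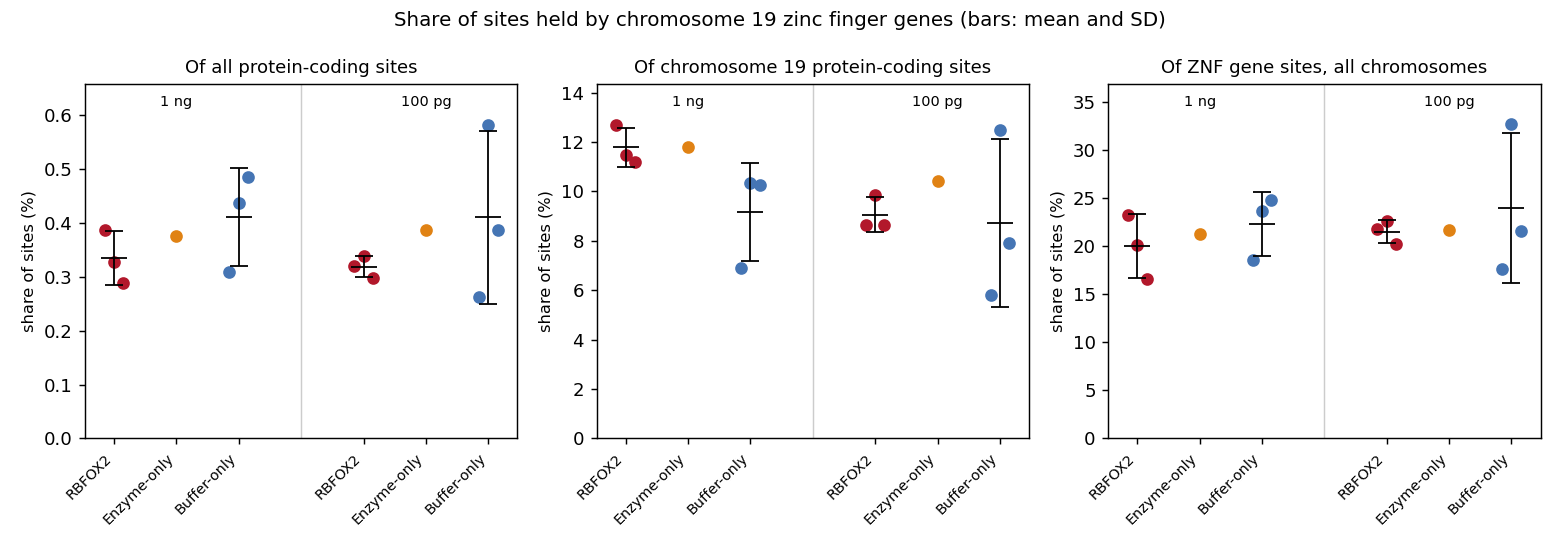
Share of edit sites that fell in the zinc finger genes of chromosome 19, in percent, out of all protein-coding sites, of the protein-coding sites of chromosome 19, and of sites in ZNF genes of all chromosomes. Points are libraries and bars give mean and SD. Only in the middle panel at 1 ng do the RBFOX2 libraries, 11.2% to 12.7%, lie above all Buffer-only libraries, 6.88% to 10.3%.

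A pair of features of the edited letters were compared next, the neighbouring base and the RBFOX2 motif. APOBEC1 prefers a cytosine that follows A or U. Such sites made up 74.9% ± 3.84 of member sites in RBFOX2 libraries and 55.1% ± 5.003 in Buffer-only libraries at 1 ng (SD, n = 3; exact permutation p = 0.1), and 71.3% in the Enzyme-only library. The 100 pg libraries gave 61.9% ± 0.972 and 47.8% ± 8.31 (exact permutation p = 0.1), and Enzyme-only gave 59.6%, so the groups were separated at both inputs. With at least 20 reads those of 100 pg were not (exact permutation p = 0.2). Other protein-coding genes were separated too, with 77.2% to 78.0% in RBFOX2 and 46.7% to 48.2% in Buffer-only libraries at 1 ng. Their values at 100 pg were 65.8% to 66.5% and 46.7% to 47.8%. The separation is therefore not particular to the members.

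Sites within 50 nt of the centre of a UGCAUG on the same strand were 12 of 109, 6 of 96 and 4 of 86 in the RBFOX2 libraries at 1 ng, or 11.01%, 6.25% and 4.65%. The Buffer-only libraries had 1 of 30, 0 of 47 and 1 of 52, or 3.33%, 0% and 1.92%, and a count of 0 of 47 allows a share of up to 6.38%. The Enzyme-only library had 1 of 94, 1.06% with a 95% Wilson interval of 0.188% to 5.78%. The RBFOX2 values thus lay above all control values (exact permutation against Buffer-only, p = 0.1), on 22 sites in all. Many of these sites were bunched, with 6 in ZNF567, 2 in ZNF426 and 3 in ZNF700. The difference of 5.55 percentage points was 1.23 with at least 20 reads (exact permutation p = 1), 3.97 with a window of 20 nt (p = 0.2) and 3.70 without RBFOX2 replicate 1. Intervals and limits cover counting error only and treat neighbouring sites as independent. Other protein-coding genes showed 5.96% to 6.28% in the same RBFOX2 libraries and 2.33% to 2.65% in Buffer-only. Members and other genes did not separate in this share over the 7 libraries at 1 ng (4.03% and 4.12% on average, exact sign-flip permutation p = 0.953). These libraries mix the 3 conditions, so the test does not show whether members differ within RBFOX2 libraries. There members were higher in replicates 1 and 2 (11.01% and 6.25% against 6.17% and 5.96%) and lower in replicate 3 (4.65% against 6.28%). They were lower in Enzyme-only and in Buffer-only replicates 2 and 3, and higher in Buffer-only replicate 1. Among sites with at least 20 reads the members were lower by 2.89 percentage points in this share (exact sign-flip permutation p = 0.0312, not adjusted), again with the 3 conditions mixed. At 100 pg the RBFOX2 libraries had 5 of 49, 0 of 52 and 1 of 46 such sites and the Buffer-only libraries 2 of 25, 2 of 54 and 0 of 33, with overlapping shares (exact permutation p = 1).

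Sites of RBFOX2 libraries close to the motif show where an edit fell relative to it. Each reference stretch of hg38 runs 5′ to 3′ on the strand of the gene, with the edited cytosine and any UGCAUG, written TGCATG in DNA letters, in capitals. The 3′UTR of ZNF567 held 6 sites within 50 nt of 2 copies of the motif, in RBFOX2 replicates 1 and 3 at 1 ng. Shown are 2 of them, both from replicate 1:
ZNF567, plus strand, chr19:36721095-36721124: gttttTGCATGttttCaattttataaatat
ZNF567, plus strand, chr19:36721177-36721206: tttttaagatctgtaCattatTGCATGtgg
The 3′UTR of ZNF426 and the coding sequence of ZNF700 and ZNF14 held others:
ZNF426, minus strand, chr19:9528258-9528287: cTGCATGaaaattaCttaattcctgtaatc
ZNF700, plus strand, chr19:11949931-11949960: agaTGCATGaaaggaCtcacactggagaga
ZNF14, minus strand, chr19:19711792-19711821: ccagttcctttcgaCTGCATGaaagaacac
These genes were chosen for display after their values were seen. The ZNF567 sites had 1 edited read of 13 and 1 of 12, the ZNF426 site 2 of 13 and the ZNF14 site 1 of 5. ZNF700 held 3 sites within 5 nt, each with 2 edited of 12 reads in RBFOX2 replicate 2 at 1 ng. Another ZNF700 site lay inside the motif of the same stretch, at position 11949936, with 1 of 12 reads in Buffer-only replicate 2 at 100 pg.

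Few positions recurred. Of 812 member positions, 12 (1.48%) were called in 2 or more libraries, against 9105 of 216708 (4.202%) in other protein-coding genes, where the most shared positions appeared in 14 libraries. None was called in all 3 RBFOX2 libraries of an input and in no control. The sequences of some of these recurring positions, picked for display, are given with the edited cytosine in capitals:
ZNF254, intron, plus strand, chr19:24062634-24062663: tgtcatccacttaaaCacactcttcttttg
ZNF302, 3′UTR, plus strand, chr19:34685887-34685916: caaatgtgggaaagaCtataggcaatagga
ZNF146, 3′UTR, plus strand, chr19:36238343-36238372: gatacagaccaaactCttgatagtggtcac
ZNF714, 3′UTR, plus strand, chr19:21120683-21120712: ccctgttccaccttaCtgaagggtataggt
ZNF57, coding sequence, plus strand, chr19:2917456-2917485: ccctataaatgtcagCactgtgggaaagcc
The ZNF254 position was the most widely called, in 3 RBFOX2 libraries, with 5 of 13 reads edited in replicate 3 at 100 pg and 1 of 23 and 4 of 13 in replicates 1 and 2 at 1 ng. The ZNF302, ZNF146 and ZNF714 positions shown were called in 2 RBFOX2 libraries each and in no control. The ZNF57 position was called only in 2 Buffer-only libraries, with 4 of 11 and 2 of 22 reads. Positions not shown included others called in controls. A ZNF146 position, 36238468, had 7 of 83 reads in RBFOX2 replicate 1 and 9 of 56 in Enzyme-only at 100 pg. A ZNF302 position was shared with Enzyme-only, and a ZNF565 position with Buffer-only. Positions in ZNF302 and ZNF576 were called only in Buffer-only libraries. A further position each in ZNF302 and ZNF146 was called only in RBFOX2 libraries.

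Single genes were then compared. At 1 ng, 5 members had more sites in every RBFOX2 library than in every Buffer-only library and 1 had fewer in every one. This is 4.55% of the 110 members with a site in these 6 libraries, where 19.6% of all protein-coding genes with a site were higher in this way and 0.292% lower. For the other protein-coding genes of chromosome 19 it was 4.99%. Members with a site held a median of 2 sites over the 6 libraries, and protein-coding genes of other chromosomes 7. At 100 pg, 2 of 103 members (1.94%) were higher in this way and 0 lower, with 5.60% and 0.687% over all protein-coding genes with a site. The 10 genes with most sites accounted for 39.5% of the member sites in RBFOX2 libraries at 1 ng and for 38.7% at 100 pg.

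ZNF146, whose protein is built almost wholly of zinc fingers and has no KRAB domain, was the only member above every Buffer-only library at both inputs (ENSG00000167635.12, hg38 chromosome 19, 36214602 to 36238771, plus strand). At 1 ng it held 10, 8 and 7 sites in the RBFOX2 libraries, 3 in Enzyme-only and 0, 3 and 3 in Buffer-only. At 100 pg it held 7, 3 and 4 sites, 3 in Enzyme-only and 1, 0 and 0 in Buffer-only. RBFOX2 lay above Enzyme-only at 1 ng, and at 100 pg the lowest RBFOX2 library equalled it. The exact permutation p against Buffer-only was 0.1 at each input. That value is fixed in advance for a gene chosen for lying above every Buffer-only library. Of its 52 sites, 21 lay in the 3′UTR, 19 in introns and 7 in coding sequence, at a median coverage of 44 reads. Only 1 lay within 50 nt of a UGCAUG. Scaled by edgeR at 1 ng, the log2 fold change was 0.69 ± 0.68 (SE; adjusted p = 0.645).

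ZNF565 lies on the opposite strand across ZNF146 and held the most sites of all members in Buffer-only libraries. It had 3, 1 and 3 sites in RBFOX2 at 1 ng, 4 in Enzyme-only and 3, 3 and 4 in Buffer-only. At 100 pg it had 3, 3 and 0 against 0, 4 and 4. Of its 35 sites, 34 lay in introns, 34 lay inside the span of ZNF146, and 12 of those lay between the first and last coding or 3′UTR site of ZNF146. All 52 ZNF146 sites in turn lay inside the span of ZNF565, so the counts of these 2 genes rest on the strand given to each mismatch. In edgeR at 1 ng, ZNF565 had the lowest p of the members tested, and its log2 fold change was -1.79 ± 0.68 (SE; adjusted p = 0.154). That fold change is relative to library totals of sites, which were higher in RBFOX2 libraries. The unscaled means were 2.33 sites in RBFOX2 and 3.33 in Buffer-only libraries.

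ZNF714 (ENSG00000160352.16, 56 sites over all libraries, the most of any member) differed widely between libraries of 1 group. At 1 ng it held 16, 4 and 0 sites in the RBFOX2 libraries, 21 in the Enzyme-only library and 0, 2 and 5 in Buffer-only. RBFOX2 and Buffer-only overlapped here, and the Enzyme-only library was the highest of all. Most sites, 31 of 56, lay in the 3′UTR, and 1 lay within 50 nt of UGCAUG. Without ZNF714 the members held 93, 92 and 86 sites in RBFOX2 at 1 ng, 73 in Enzyme-only and 30, 45 and 47 in Buffer-only. Leaving this gene out, which was chosen after the data were seen, kept the groups apart (exact permutation p = 0.1). The Enzyme-only library then lay below every RBFOX2 library. The gene left out is the one that held most sites in Enzyme-only, so no conclusion is drawn from that order.

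The 4 other genes above every Buffer-only library at 1 ng had small counts. ZNF557 had 2, 4 and 2 sites in RBFOX2, 2 in Enzyme-only and 0, 1 and 0 in Buffer-only, and 12 of its 13 sites over all libraries lay in the 3′UTR. ZNF738 had 3, 4 and 3 sites, 1 in Enzyme-only and 0, 0 and 2 in Buffer-only, again with 12 of 14 sites in the 3′UTR. ZNF431 had 1, 1 and 4 sites, 2 in Enzyme-only and 0 in each Buffer-only library. ZNF529 had 3, 2 and 2 sites and 0 in each of the 4 controls at 1 ng, and 6 of these 7 RBFOX2 sites lay in exons of noncoding transcripts of the gene. Each gave exact permutation p = 0.1, a value fixed in advance by choosing genes above every Buffer-only library. None of these 4 genes lay above the Buffer-only libraries at 100 pg, where ZNF559 was the second such gene, with 1, 1 and 2 sites against 0 in Enzyme-only and in each Buffer-only library.

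Among the genes with most sites in Buffer-only libraries, ZNF121 had 3, 6 and 2 sites in RBFOX2 at 1 ng, 5 in Enzyme-only and 1, 5 and 2 in Buffer-only, and 30 of its 35 sites lay in the 3′UTR. ZNF302 had 5, 0 and 5 against 1, 2 and 1, with 0 in Enzyme-only. ZNF584 had 0, 0 and 2 against 0, 3 and 1, and each of its 11 sites over all libraries had a single edited read. The groups overlapped in these 3 genes. ZNF274, a KRAB protein that brings SETDB1 to the 3′ ends of other zinc finger genes, was the member below every Buffer-only library at 1 ng, named after its values were seen. It had 0 sites in RBFOX2 and Enzyme-only and 1 in each Buffer-only library.

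**Figure D3:**
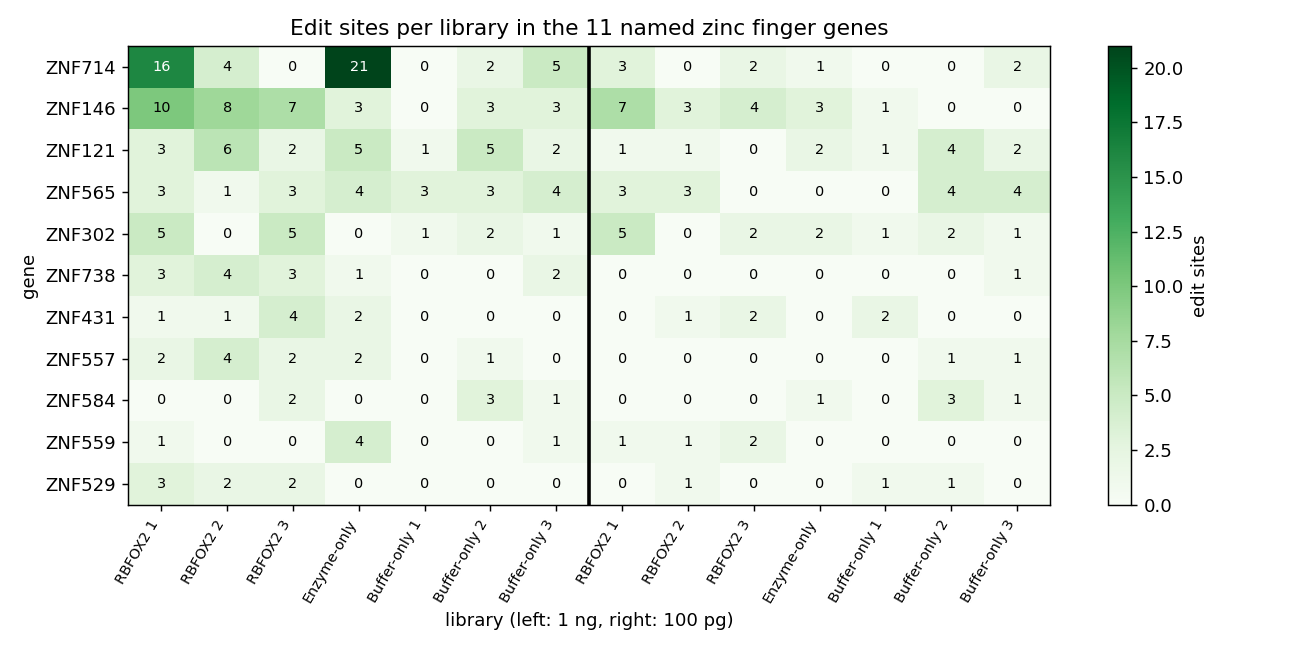
Edit sites per library in the 11 zinc finger genes named by rule, with 1 ng libraries on the left and 100 pg libraries on the right of the line. Colour and numbers give sites. ZNF146 holds 7 to 10 sites in RBFOX2 libraries at 1 ng against 0 to 3 in Buffer-only, and ZNF714 holds 0 to 16 in RBFOX2 and 21 in Enzyme-only.

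Across all genes, edgeR's quasi-likelihood test called no member. At 1 ng, 5 members had enough sites to be tested, and 0 passed an adjusted p of 0.05, where 36 of 2251 genes were called higher (1.60%) and 17 lower (0.755%). With library totals in place of TMM scaling the calls were 19 higher and 25 lower, and the median log2 fold change of all genes moved from 0.21 to -0.01. The median of the 5 members was -0.03 with TMM. A single member, ZNF565, was under an unadjusted p of 0.05, and DESeq2 also called 0 members with 1 under that p. At 100 pg no member had enough sites, and 1 of 765 genes was called higher (0.131%) and 0 lower. On simulated counts at 1 ng the test recovered 56.6% of 99 genes changed 4-fold and 89% of 100 genes changed 8-fold, drawn among the genes with most sites. At 100 pg it recovered 24.7% of 85 and 77.3% of 97 such genes. The spread of the simulated counts was set and not estimated from the data. Most members had too few sites to be tested, so the recovery does not describe them.

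The number of edits varied between stretches of the chromosome. Members less than 1 Mb apart were joined into 16 loci. The locus from ZNF565 to ZNF573 (36182276 to 37817300, 26 members, 23 with a site) held 24 ± 2.65 sites in RBFOX2 and 8.67 ± 2.31 in Buffer-only libraries at 1 ng (SD, n = 3; exact permutation p = 0.1), with 14 in Enzyme-only. The locus from ZNF101 to ZNF254 (19668796 to 24129968, 37 members, 12 with a site) held 17.7 ± 8.14 against 5.67 ± 3.51 (exact permutation p = 0.1), with 28 in Enzyme-only. Without ZNF714 that locus held 11, 10 and 12 sites in RBFOX2, 7 in Enzyme-only and 2, 4 and 4 in Buffer-only. ZNF714 was left out after the data were seen, so no conclusion is drawn from the place of Enzyme-only here. The largest locus, from ZNF628 to ZNF446 near the end of the long arm (55476617 to 58481230, 59 members, 38 with a site), held 14.7 ± 1.15 against 11.7 ± 2.89 sites, which overlapped (exact permutation p = 0.3). Another separated locus, from ZNF653 to ZNF791 (11483427 to 12640098, 25 members, 9 with a site), held 4 to 6 sites in RBFOX2, 3 in Enzyme-only and 0 to 3 in Buffer-only libraries (exact permutation p = 0.1). Over the 32 locus tests of both inputs the lowest adjusted p was 0.711 (Benjamini-Hochberg over exact permutation tests).

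**Figure D4:**
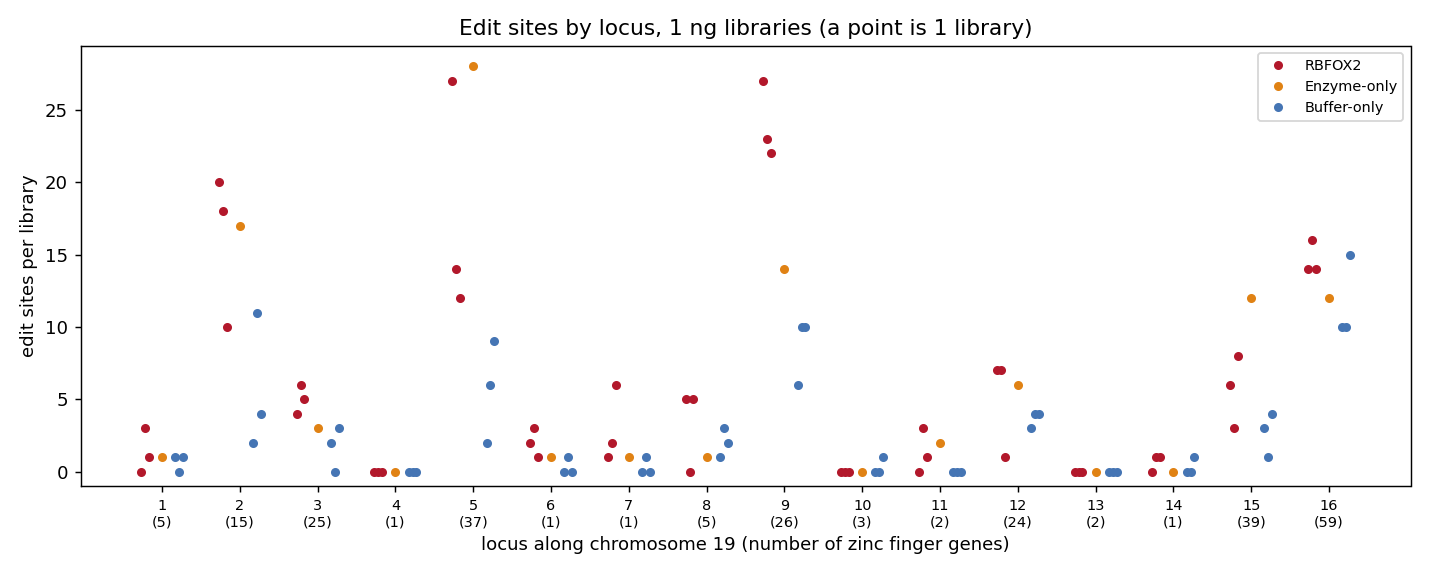
Edit sites per library at 1 ng in each of 16 loci of zinc finger genes, in chromosome order, with the number of member genes in parentheses. A point is 1 library. Loci 3, 5 and 9 separate the RBFOX2 libraries from Buffer-only, and in locus 5 the Enzyme-only library is the highest, at 28 sites.

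Sites were also summed by the number of fingers. Counted in the canonical Gencode coding sequence, 103 members had 10 to 14 fingers and 82 had 15 or more. Members with 10 to 14 fingers held 49.3 ± 12.9 sites in RBFOX2 and 16.7 ± 5.86 in Buffer-only libraries at 1 ng, and those with 15 or more 18.7 ± 8.14 against 8.67 ± 3.06. The 52 members with 5 to 9 fingers held 24.3 ± 1.53 against 14 ± 4.36, so these 3 classes were each separated (SD, n = 3; exact permutation p = 0.1, lowest adjusted p = 0.267 over 8 tests). The 9 members with 0 to 4 fingers held 7.33 ± 2.52 against 4.33 ± 1.53 (exact permutation p = 0.2). In the order given, the Enzyme-only library at 1 ng held 51, 17, 24 and 6 sites in the classes. At 100 pg RBFOX2 and Buffer-only libraries overlapped in every class. There Enzyme-only held 17 sites in members with 0 to 4 fingers, against a mean of 3.67 in RBFOX2.

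The partners of KRAB zinc finger proteins formed a list of 26 genes, from TRIM28 and SETDB1 to heterochromatin proteins, the HUSH and NuRD complexes and DNA methyltransferases. All 26 had a site in some library. Together they held 121 ± 10 sites in RBFOX2 and 49.7 ± 3.51 in Buffer-only libraries at 1 ng, with 104 in Enzyme-only, and 67 ± 8.19 against 31.3 ± 11.6 at 100 pg, with 61 in Enzyme-only. The groups did not overlap at either input. Sites also rose in protein-coding genes of other chromosomes, with means 2.85 times higher in RBFOX2 than in Buffer-only libraries at 1 ng and 1.71 times at 100 pg. The separation is therefore not particular to this list. At 1 ng, 9 of 26 genes (34.6%, beside 19.6% of all protein-coding genes with a site) had each RBFOX2 value above each Buffer-only value, among them CBX3, a heterochromatin protein, with 8, 15 and 24 against 4, 4 and 5 sites. HDAC2, a histone deacetylase, had 11, 9 and 4 against 1, 0 and 2. TRIM28 itself had 3, 2 and 3 sites against 2, 2 and 1, and SETDB1 1, 0 and 0 against 4, 1 and 0. At 100 pg, 2 of the 26 genes (7.69%, beside 5.6% of all protein-coding genes with a site) were higher in this way, UHRF1 and HDAC1. In edgeR 0 of 11 genes tested at 1 ng and 0 of 8 at 100 pg were called with all libraries. CHD4, a NuRD remodeler, had the lowest p, and its log2 fold change at 1 ng was -2.12 ± 0.63 (SE; adjusted p = 0.0735). This value is scaled to library totals, which were higher in RBFOX2 libraries. The CHD4 counts at 1 ng overlapped, at 3, 1 and 5 against 5, 8 and 3 sites, with 3 in Enzyme-only. At 100 pg they were 2, 4 and 6 against 6, 2 and 1, with 9 in Enzyme-only. Without RBFOX2 replicate 1 CHD4 was called lower by edgeR (adjusted p = 0.0341), and so it was without RBFOX2 replicate 3 (adjusted p = 0.0379).

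A single run of sites stood apart in height. ZNF428 held 11 sites in the Enzyme-only library at 100 pg, against 0, 1 and 1 in the Buffer-only libraries and 1 in each RBFOX2 library of that input. Of these, 8 lay within 300 nt of an intron, each with 9 to 14 edited of 13 to 18 reads, or 64.3% to 78.6%. The 30 nt at the 3′ end of the run held 4 of the edited cytosines, in capitals:
ZNF428, intron, minus strand, chr19:43618752-43618781: gataaaCaattatatccaaaagataCaaCC
The nearest UGCAUG lay 444.5 nt from its closest site. In the other libraries 3 sites lay within 100 nt of the run, at 9.09% to 16.7% of reads. ZNF428 was named after its values were seen.

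**Figure D5:**
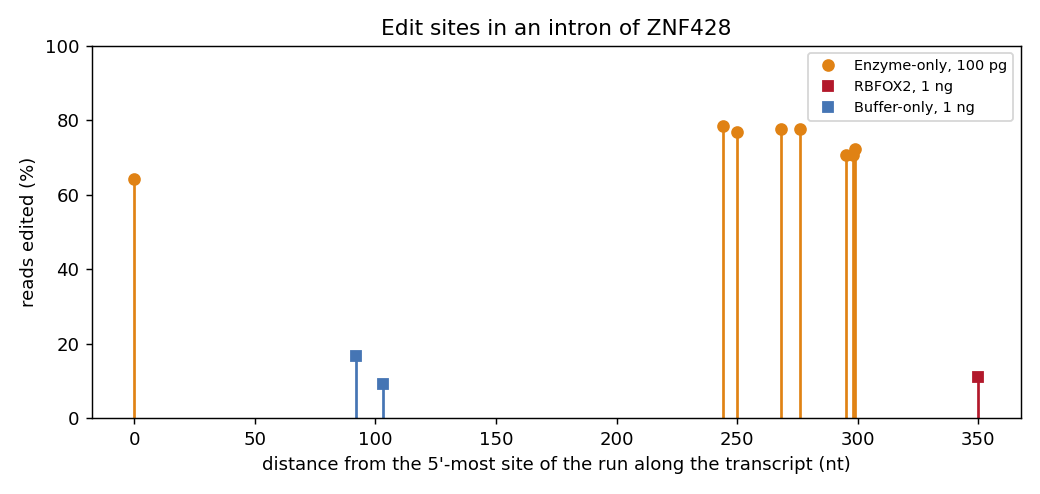
Percent of reads edited at sites in an intron of ZNF428, by distance along the transcript from the 5′-most site of the run. The 8 sites of the Enzyme-only library at 100 pg lie between 64.3% and 78.6%, and the 3 sites of RBFOX2 and Buffer-only libraries at 1 ng lie at or below 16.7%.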

How the data were processed

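C-to-U edits were read by short-read sequencing in 14 libraries. Per the methods of the study, the authors trimmed the reads (the submitters' notes name cutadapt), removed repeat reads, aligned the rest with STAR (version 2.4.0 in those notes) to hg38, called sites with SAILOR and removed known variants. The deposited site files hold edited and total read counts, a SAILOR score and an edit fraction, limited by the authors to a score above 0.5 and a fraction below 0.8. In the deposited cluster files, which the authors made with FLARE (false discovery rate 0.1), counts, a score, an edit fraction and a coverage signal (mean depth) are given. P-values deposited in lists over replicates were not used, and those lists were read only for positions.

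Groups came from the labels. Sites were placed on Gencode 44 (the authors used an earlier release) with Python 3.11.15 and pandas 2.3.3. A site in the span of a member on its strand counted for it, 18 sites for more than 1 member and 19 that another gene would take. For the model over all genes each site went to 1 gene, exons before introns. No site had under 5 reads, and 8091 sites off the main chromosomes were left out. Values per library were compared by exact two-sided permutation. Sites per gene were tested with edgeR 4.0.16 in R 4.3.3 (TMM, quasi-likelihood, at least 3 sites in enough libraries and 5 in all, Benjamini-Hochberg at 0.05), with DESeq2 1.42.0 as an alternative and the SE taken from the fold change and its F statistic. Both were tested on simulated data. Fingers were counted in the Gencode coding sequence and not, as planned, in RefSeq proteins. Members, lists, tests and the rule for named genes were chosen with earlier results of these data known. The rule names, per input, up to 10 members with most RBFOX2 sites among those above every Buffer-only library, any member called, the 5 with most Buffer-only sites, and the list of KRAB partners. Members in lists over replicates, or at positions of all RBFOX2 libraries of an input and no control, would have been named too, and there were 0. Alternatives were score and coverage limits, the motif window, 1 gene per site, filters, scaling, the replicate block and leaving out each library.

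Libraries of 1 number in the RBFOX2 and Buffer-only groups were checked for shared deviations from their group means. The correlations were -0.02, -0.01 and -0.03 over 2251 genes at 1 ng and between -0.03 and 0.005 over 765 genes at 100 pg, so the replicate number was not used as a pairing.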

Additional observations from a re-analysis of the deposited data

Results flagged for a closer look

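The Enzyme-only libraries entered no comparison and are single libraries. At 1 ng this library held 94 sites in the zinc finger genes, above the highest Buffer-only library (52), 78 clusters (highest Buffer-only 48) and 50 sites in the 3′UTR (highest Buffer-only 17). ZNF428 held 11 sites in the Enzyme-only library at 100 pg, where no Buffer-only library had more than 1. With 3 libraries a group, no group could be screened for a library far from the others. None of the 12 tests of a difference between the inputs fell under 0.05, and the lowest was 0.09, for clusters (exact permutation, adjusted p = 0.46).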

How the results depend on the processing

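Each summed value of the members compared between RBFOX2 and Buffer-only libraries at 1 ng kept its direction under every alternative run, but not the log2 fold changes of ZNF302, ZNF714 and ZNF121, and none of the sums can pass 0.05 with 3 libraries against 3. The coverage limits reduced most site differences, as given with the results. Differences at 100 pg were less stable. With a SAILOR score of at least 0.9 the 100 pg difference became -1.41 points for the chromosome 19 share and -2.22 points for the share near UGCAUG, and the UGCAUG share of members less that of other genes at 1 ng became 0.0772 points. With at least 10 reads the Buffer-only difference between inputs became -2 sites and the coding share of members less that of other genes at 1 ng 2.18 points. With at least 20 reads that coding difference was 2.03 points, the 100 pg differences became 2.47 points for the share of ZNF sites, -0.667 coding sites and -1 opposite strand sites, and the UGCAUG share of members less that of other genes became -2.89 points at 1 ng (exact permutation p = 0.0312) and -0.259 points at 100 pg. With a motif window of 20 nt these last differences were 0.449 and -0.0676 points and the 100 pg share near UGCAUG differed by -1.84 points, and with 100 nt by -0.322 points. The cause was not tested.

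Leaving out 1 library at a time gave, at 100 pg, 5.5 to 20 sites, -0.5 to 13 clusters, -1.13 to 2.22 points of the chromosome 19 share, -5.63 to 1.93 points of the ZNF share, -1 to 3.5 coding sites, -0.5 to 5.5 intronic sites, -1.67 to 5.33 opposite strand sites, -2.81 to 2.29 points of the share near UGCAUG and -0.167 to 8.33 members with a site. The Buffer-only difference between inputs ranged from -0.5 to 14 sites. Members less other genes ranged from -2.04 to 0.0200 points for the coding share and from -0.902 to 0.345 points for the UGCAUG share at 1 ng, and from -0.385 to 1.33 points for the latter at 100 pg. At 1 ng the site difference ranged from 47.5 to 59.5 and without ZNF714 was 49.7.

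The number of members called by edgeR was 0 at both inputs under every alternative, while 1 KRAB partner, CHD4, was called lower at 1 ng without RBFOX2 replicate 1 or 3. Over all genes the 53 calls at 1 ng became 0 with DESeq2, 26 with the default filter, 93 with no filter, 0 with the replicate block and 0 to 84 without 1 library, with 0 when any Buffer-only library was left out. The 1 call at 100 pg became 0 with library totals, DESeq2 or the default filter, stayed 1 with the block, and was 0 to 4 without 1 library. The log2 fold change of ZNF302 turned to 0.0182 with DESeq2 and 0.35 with no filter, and ranged from -0.00827 to 0.53 without 1 library. That of ZNF714 turned to -0.0557 with library totals and ranged from -0.19 to 1.52, and that of ZNF121 ranged from -1.03 to 0.11. With the replicate block the difference in sites was 54 at 1 ng (exact sign-flip permutation p = 0.25, the smallest that 3 pairs allow) and 11.7 at 100 pg (p = 0.5), and no other call changed.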
